A study of Mus musculus with 6 samples.

Results

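The genes described here are 57 mouse genes that lie within a single interval of distal chromosome 1, about 130 to 180 Mb on GRCm38, and that are used in many cell types. They were selected on the contrast between β1-K794Q-GFP and β1-WT-GFP cells in these same cultures: the list names genes of that interval, and the measure attached to it is the log2 ratio of each mutant culture to the β1-WT-GFP mean. All 57 were found among the 23420 gene symbols counted, and 56 of them passed the filter on low counts, out of 11608 genes that passed it. The list runs from Mapkapk2, which starts at 131053700, to Uap1, which ends at 170174957, and falls into 26 tested genes under 140 Mb and 30 from 150 Mb on. The gene left out, the kinase gene Nuak2, had 0, 0 and 4 counts in the wildtype cultures and 0, 8 and 2 in the mutant cultures, so that a gene listed as widely used was close to silent in these cells. Because the contrast chose the list, the levels of its genes are given as a description, without a test.

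All cultures were of eEnd2, a line of mouse embryonic endothelial cells that was not treated with any agent. The cells were stably transfected with a chimera of human Integrin-β1 and GFP under a short human β-actin promoter and sorted for GFP. The chimera was wildtype in the β1-WT-GFP cells and carried the K794Q exchange, a glutamine in place of a lysine that mimics its acetylated form, in the β1-K794Q-GFP cells. Total RNA depleted of ribosomal RNA was sequenced from 3 cultures per group, each called A, B and C. The groups are called wildtype and mutant below, and values given as a series of 3 are in the order of cultures A, B and C. Per the study's methods, the 3 RNA samples of a group were different cultures of the same kind of sorted cells. Whether these cells had low or high GFP, and whether the cultures go back to separate transfections, is not given in the sources used here, so p-values measure the spread between these samples only, which may be technical.

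Genes that lie side by side on a mammalian chromosome mostly have unrelated functions and separate promoters, and most of them are regulated one by one. Levels of many neighbours can differ together where a chromatin domain differs or where the number of copies of a chromosome segment differs, which happens often in cultured cell lines. RNA counts measure neither, and neither was tested here. In bulk RNA, fewer cells that express a gene and less of its RNA per cell cannot be told apart.

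The cultures held between 9589826 and 15287191 counts. The 9 endothelial markers, among them Pecam1 and Cdh5, were at 1 CPM or more in every culture (CPM, counts scaled to the TMM-normalized library size, called normalized counts below), with a sum of 7536 to 8640 in β1-WT-GFP and 6512 to 12465 in mutant cultures. None of the 6 mesenchymal or 4 epithelial markers reached 1 CPM in every culture. The sum of the mesenchymal markers was 0.787 to 28.9 in β1-WT-GFP and 2.58 to 3.65 in mutant cultures, the epithelial sum was at most 0.592 with Epcam and Krt18 at 0 throughout, and of 3 blood markers Lyz2 was at 0 throughout and only Cd68 was at 1 CPM or more in every culture. The part of these cell type markers in the results was not tested. With all cultures, 603 genes were past a fold change of 2 and an unadjusted p of 0.05, and 942 without mutant culture B. Wildtype culture C stood apart from wildtype cultures A and B: the number was 528 without A, 501 without B and 992 without C. Without it the log2 fold change (mutant over wildtype) of 23 of the 56 tested genes of the list moved by more than 1.5 times or changed sign, 18 of them toward or past 0 and 5 away from it. These values are given after the role groups described below.

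In the β1-K794Q-GFP cells the chromosome 1 genes had a median level of 68.3% of that in β1-WT-GFP cells, a median fitted log2 fold change of -0.55 with quartiles of -0.80 and -0.31. The fitted log2 fold change was negative for 53 of the 56 tested genes of the list and for 5993 of all 11608 tested genes. Culture by culture, the median log2 ratio to the β1-WT-GFP mean was -0.53, -0.59 and -0.55 in the mutant cultures, against -0.09, -0.05 and 0.13 in the wildtype cultures. The 3 mutant cultures thus lay close together and under all 3 wildtype cultures. Over all 11608 tested genes the same medians were -0.04, -0.06 and -0.05 in the mutant cultures. Without wildtype culture C the median fitted log2 fold change of the chromosome 1 genes was -0.43, with 50 of 56 negative. That of all tested genes was then 0.03, with 5453 of 11608 negative.

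Together the 57 genes took 0.893%, 0.916% and 1.02% of all counts in the wildtype cultures, and 0.624%, 0.592% and 0.640% in the mutant cultures. These shares did not overlap between the groups, but the contrast chose the genes, so nothing is read from this. Of the 155708 counts of the list in wildtype culture C, 23048 were of Prdx6, which had 2589 and 2977 in A and B. The genes are mostly well expressed, with a median of 104 normalized counts in β1-WT-GFP cells against 34.0 over all tested genes, and 47 of the 56 lay above that second value. A tested gene of the list had a median of 691 to 1440 raw counts per culture, and the lowest single count was 3, for Atp2b4 in mutant culture B.

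In 27 of the 56 genes (48.2%) each mutant culture was below each wildtype culture, and in 0 was the order the opposite. The share of all tested genes with each mutant culture below each wildtype culture was 8.12%. The study's rule calls a gene at a 2-fold difference or more with an unadjusted p up to 0.05 in edgeR's quasi-likelihood test. By this rule 4 of the genes were called lower (Kdm5b, Rgl1, Prdx6 and Uck2) and 0 higher, where 1.71% of all tested genes were called lower. At an adjusted p of at most 0.05 in the same test none of the 56 was called, where 0.0948% of all tested genes were called lower, and 20 had an unadjusted p under 0.05, where 4.08% of all tested genes were lower at that level. With DESeq2 the number called lower at the study's rule was 6, where 2.01% of all genes it tested were called lower. Since the contrast chose the genes, nothing is read from these counts against their background. With wildtype culture C left out, 35 of the 56 genes (62.5%) had each mutant culture below both remaining wildtype cultures, and 20.1% of all tested genes did.

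The single cultures differed in how many genes were under the wildtype mean. In mutant culture A the log2 ratio was under 0 in 54 of 56 genes, in culture B in 47 and in culture C in 50. It was under 0 in all 3 mutant cultures for 41 genes, in 2 of them for 13, and in 1 for 2 genes. Culture B had the widest spread between genes, with quartiles of -0.93 and -0.21 against -0.79 and -0.36 in culture A. The lowest of the mutant cultures was C in 26 genes, B in 21 and A in 9. In 34 genes the highest wildtype culture was C, and in 16 it was the lowest.

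**Figure D1:**
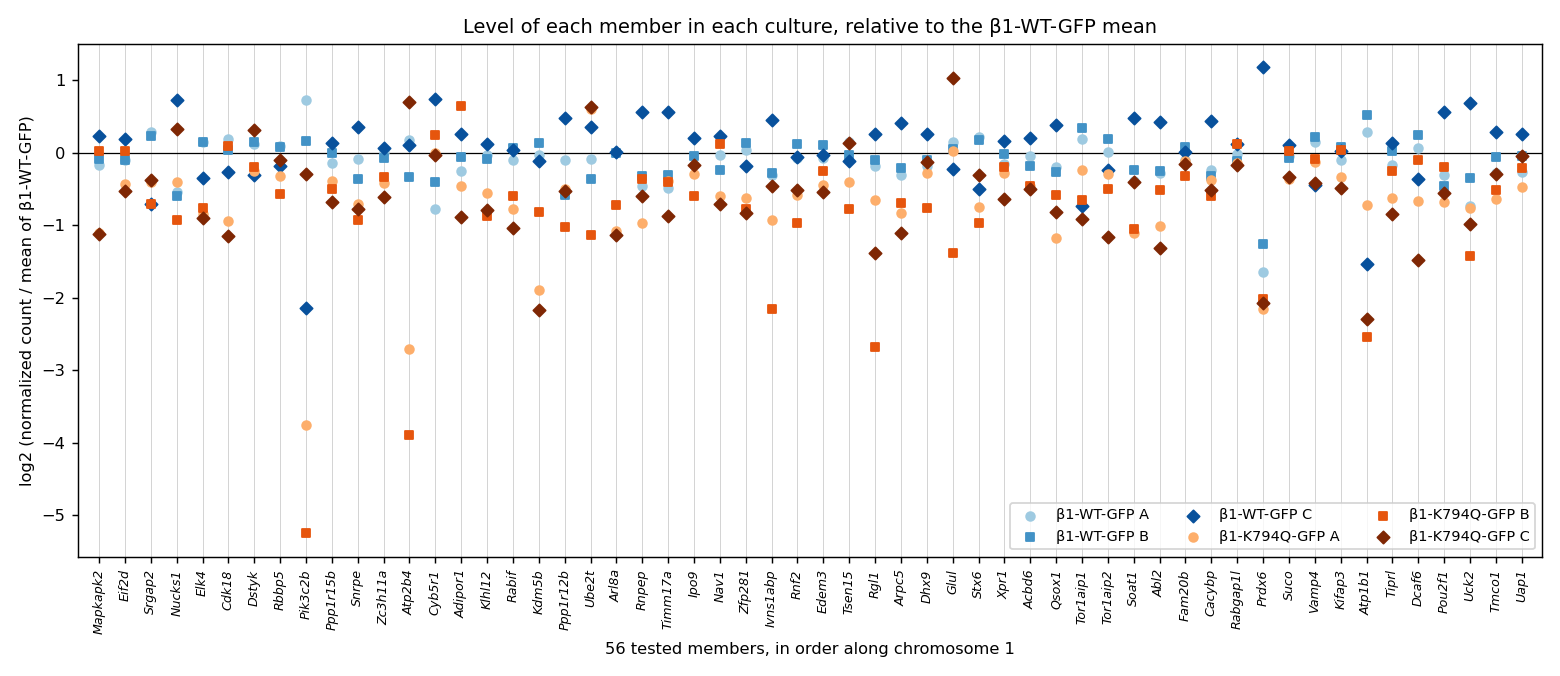
Log2 ratio of the normalized count in each culture to the mean of the 3 wildtype cultures, for the 56 tested genes in their order along chromosome 1; each point is 1 culture, blue for β1-WT-GFP and orange to brown for β1-K794Q-GFP. Most mutant points lie between -0.9 and -0.2, and a few genes such as Pik3c2b, Atp2b4 and Glul have mutant cultures far apart.

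The most separated gene was Arl8a, a small GTPase that places lysosomes along microtubules. It had 164, 163 and 164 normalized counts in the wildtype cultures and 77.5, 99.6 and 74.2 in the mutant cultures. The wildtype cultures were nearly level and the mutant cultures all well below them, and the log2 fold change was -0.97 ± 0.18 (± is the standard error here and below). Kdm5b, a demethylase of histone H3 lysine 4, had 161, 180 and 152 in the wildtype cultures and 44.2, 93.5 and 36.6 in the mutant cultures. Its mutant culture B lay between the others and the wildtype, and its log2 fold change was -1.50 ± 0.38. It was past both thresholds in every alternative fit, between -2.02, with mutant culture B left out, and -1.26, with C left out. Rabif, which stabilizes Rab GTPases, had 43.3, 48.2 and 47.4 against 27.0, 30.5 and 22.5, a log2 fold change of -0.80 ± 0.18. At the other end was Ube2t, the ubiquitin-conjugating enzyme of the Fanconi anaemia pathway, with 4.72, 3.90 and 6.41 against 7.61, 2.27 and 7.74 and a log2 fold change of 0.23 ± 0.52.

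The promoters of these 4 genes are shown because they are the 3 with the widest gap between the groups and the 1 with the highest fold change. The sequences are the 250 bases before the RefSeq start on GRCm38.p6, each on the plus strand: chr1:135146584-135146833 for Arl8a, chr1:134559928-134560177 for Kdm5b, chr1:134494389-134494638 for Rabif and chr1:134962315-134962564 for Ube2t. Capitals mark the matches, on either strand and with overlaps run together, to the motifs of 6 kinds of factor. These were GGGCGG for the GC box, TATAAA for the TATA box and CCAAT for the box of that name. The others were CCGGAAG for ETS factors, TGACGTCA for the cAMP response element and GCGCATGCG for NRF1.
Arl8a: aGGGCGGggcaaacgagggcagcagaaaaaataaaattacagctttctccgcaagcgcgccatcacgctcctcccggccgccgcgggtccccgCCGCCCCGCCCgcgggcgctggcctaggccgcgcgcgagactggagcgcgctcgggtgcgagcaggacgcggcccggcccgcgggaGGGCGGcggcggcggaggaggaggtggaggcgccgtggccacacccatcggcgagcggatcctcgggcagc
Kdm5b: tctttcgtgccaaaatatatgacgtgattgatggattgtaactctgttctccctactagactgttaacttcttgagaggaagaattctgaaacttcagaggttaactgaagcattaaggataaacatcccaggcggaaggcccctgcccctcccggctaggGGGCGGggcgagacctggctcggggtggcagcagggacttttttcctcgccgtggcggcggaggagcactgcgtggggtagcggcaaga
Rabif: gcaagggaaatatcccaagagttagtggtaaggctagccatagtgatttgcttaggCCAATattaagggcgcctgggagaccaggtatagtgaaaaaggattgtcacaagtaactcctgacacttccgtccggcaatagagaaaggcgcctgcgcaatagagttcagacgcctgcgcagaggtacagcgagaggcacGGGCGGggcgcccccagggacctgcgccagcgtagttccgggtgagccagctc
Ube2t: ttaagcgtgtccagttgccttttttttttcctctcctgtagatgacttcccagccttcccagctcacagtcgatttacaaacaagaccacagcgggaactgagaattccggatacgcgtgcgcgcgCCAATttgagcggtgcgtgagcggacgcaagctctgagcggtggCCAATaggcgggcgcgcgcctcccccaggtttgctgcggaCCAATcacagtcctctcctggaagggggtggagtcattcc
The Arl8a promoter held 4 matches, all to the GC box, in 75.2% G or C, and that of Ube2t 3 CCAAT boxes and no GC box in 57.6% G or C. Those of Kdm5b and Rabif each held 1 GC box, and that of Rabif a CCAAT box as well. The sequences shown share no motif across all 4 genes.

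Promoters were matched for 54 of the 57 genes. Those of Ppp1r15b, Nuak2 and Prdx6 had no entry in the table used here. The GC box was in 35 of the 54 promoters (64.8%), in 61.5% of the promoters of tested genes and in 32.9% of all 27025 promoters. The CCAAT box was in 42.6%, 37.0% and 34.5% of these sets, the ETS motif in 9.26%, 14.8% and 7.05%, the cAMP response element in 3.70%, 2.88% and 1.62%, and the TATA box in 1.85%, 5.78% and 13.0%. The NRF1 motif was in 0 of the 54, in 3.42% of tested genes' promoters and in 1.49% of all. The median G or C content was 61.6%, with a median of 18 CG dinucleotides, against 60.4% and 17 for tested genes and 52.0% and 6 for all promoters. A match is a description of letters, not a binding site, and the absence of one says only that these letters are not in this window.

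In the role groups below, the numbers of negative and of non-overlapping genes describe genes chosen on this contrast, and nothing is read from them. Of all 11608 tested genes, 5993 had a negative log2 fold change, and in 8.12% each mutant culture was below each wildtype culture. Among the kinases and phosphatase regulators, 8 of 9 were tested, all 8 had a negative log2 fold change, with a median of -0.59, and 3 had groups that did not overlap. Ppp1r15b, the regulatory subunit that directs a phosphatase to the initiation factor eIF2α, was the most abundant, with 285, 313 and 346 normalized counts in the wildtype cultures and 240, 222 and 197 in the mutant cultures. Its groups did not overlap, and its log2 fold change was -0.52 ± 0.18. Abl2, a tyrosine kinase that acts on the actin cytoskeleton, had 195, 198 and 316 against 117, 165 and 94.8, a log2 fold change of -0.91 ± 0.30. Pik3c2b, a class II phosphoinositide 3-kinase, had 56.1, 37.9 and 7.66 in the wildtype cultures and 2.50, 0.888 and 27.6 in the mutant cultures. Culture C of each group was far from A and B, the groups overlapped, and the log2 fold change was -1.71 ± 1.29. Dstyk, a kinase with dual specificity, had 87.9, 89.1 and 65.5 against 68.1, 70.3 and 100.3, so that the groups overlapped, at a log2 fold change of -0.02 ± 0.23. Mapkapk2, a kinase of the stress response, had 139, 146 and 182 in the wildtype and 72.0, 158.5 and 71.2 in the mutant cultures, at -0.63 ± 0.36. Cdk18, of the family of cyclin-dependent kinases, had 294, 265 and 213 against 133, 274 and 116, at -0.56 ± 0.36. In both genes mutant culture B was at the wildtype level while A and C were below it. The myosin phosphatase subunit Ppp1r12b and Tiprl, a regulator of phosphatases, had log2 fold changes of -0.67 and -0.56.

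The small GTPase and cytoskeleton genes were 8, all tested and all with negative log2 fold changes, with a median of -0.64, and 4 had groups that did not overlap. Besides Arl8a and Rabif these were Arpc5, a subunit of the actin-nucleating Arp2/3 complex, and Rgl1, an exchange factor for Ral GTPases. Arpc5 had 196, 210 and 322 normalized counts in the wildtype cultures and 137, 150 and 113 in the mutant cultures, a log2 fold change of -0.87 ± 0.25. Rgl1 had 40.2, 42.6 and 54.4 against 29.0, 7.11 and 17.5. Its mutant culture B was the lowest, and its log2 fold change of -1.36 ± 0.49 passed both thresholds with all cultures, and it did so in 1 of 6 refits with a culture removed. Nav1, a microtubule-binding protein and the gene with the highest mean normalized count of the list, had 844, 731 and 1008 against 571, 934 and 528, again with mutant culture B inside the wildtype range, and a log2 fold change of -0.35 ± 0.30. Rabgap1l, a GTPase-activating protein for Rabs, had 59.7, 56.1 and 66.0 against 55.0, 65.5 and 53.7, a log2 fold change of -0.06 ± 0.16. Srgap2, a GTPase-activating protein that bends membranes, and Kifap3, which links cargo to kinesin, had log2 fold changes of -0.49 and -0.25.

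All 7 chromatin and transcription genes had negative log2 fold changes, with a median of -0.68, the lowest of the role groups, and in 4 the groups did not overlap. These were Kdm5b, the ETS factor Elk4, the zinc finger factor Zfp281 and Rnf2, the catalytic ubiquitin ligase of Polycomb complex 1. Elk4, which acts with the serum response factor, had 375, 374 and 267 normalized counts in the wildtype cultures and 188, 200 and 181 in the mutant cultures, a log2 fold change of -0.84 ± 0.21. Zfp281 had 103, 110 and 88.4 against 65.2, 58.4 and 56.7, a log2 fold change of -0.74 ± 0.16. Rnf2 had 77.9, 89.2 and 78.4 against 54.8, 41.8 and 57.1, a log2 fold change of -0.68 ± 0.18. In Elk4, Zfp281 and Rnf2 the mutant cultures were closer together than in Kdm5b. The groups overlapped for Nucks1, Rbbp5 and Pou2f1. Nucks1, an abundant nuclear phosphoprotein, had 303, 291 and 729 against 332.5, 232 and 554. Culture C was the highest of both groups, and the log2 fold change of -0.24 ± 0.49 was 0.34 without wildtype culture C. Rbbp5, a core subunit of histone H3 lysine 4 methyltransferases, had a log2 fold change of -0.32. The octamer-binding factor Pou2f1 had -0.47, which was -0.07 without wildtype culture C.

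The 5 genes of RNA processing and translation were all tested, with a median of -0.37, the value nearest to 0 among the role groups, and 2 had groups that did not overlap. Snrpe, a core protein of the spliceosome, had 29.0, 24.0 and 39.4 normalized counts in the wildtype cultures and 18.9, 16.2 and 18.0 in the mutant cultures, a log2 fold change of -0.80 ± 0.24. Zc3h11a, an mRNA export factor, was the other, at -0.45 ± 0.17; the gene Zbed6 lies within it on the same strand, and the 2 may share reads. The helicase gene Dhx9 had 349, 368 and 471 against 325, 234 and 363, with mutant culture C inside the wildtype range, at -0.37 ± 0.25. The initiation factor gene Eif2d had 60.6, 61.0 and 73.9 against 48.3, 66.1 and 45.2, at -0.29 ± 0.20, with mutant culture B inside the wildtype range. Tsen15, a subunit of the endonuclease that splices tRNA, had a log2 fold change of -0.30.

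Of the 7 genes of ubiquitin transfer, folding and endoplasmic reticulum quality control, 6 had negative log2 fold changes and 5 had groups that did not overlap, with a median of -0.64. The exception in direction was Ube2t, described above. Ivns1abp, a Kelch protein that binds actin, was both the most abundant and the lowest by fold change. It had 170, 172 and 288.5 normalized counts in the wildtype cultures and 111, 47.3 and 153 in the mutant cultures, a log2 fold change of -1.02 ± 0.46. The mutant cultures spread widely and the highest of them was just under the lowest wildtype culture. Edem3, which helps to mark misfolded glycoproteins for degradation, had 146, 165 and 149 against 113, 128.5 and 105, a smaller but tighter difference of -0.41 ± 0.16. Qsox1, an oxidase that forms disulfide bonds in secreted proteins, had 51.4, 49.0 and 76.9 against 26.1, 39.6 and 33.4, a log2 fold change of -0.84 ± 0.26. The adaptors of ubiquitin ligases Klhl12 and Dcaf6 had log2 fold changes of -0.73 and -0.64, and Cacybp, which binds such ligases, of -0.50.

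The 8 genes of membrane traffic and the nuclear envelope all had negative log2 fold changes, with a median of -0.51, and 3 had groups that did not overlap. Tor1aip2, an activator of torsin ATPases in the endoplasmic reticulum, had 536, 605 and 451 normalized counts in the wildtype cultures and 432, 375 and 237.5 in the mutant cultures. Its log2 fold change was -0.61 ± 0.28. Its neighbour on the opposite strand, Tor1aip1, overlaps it over 1.08 kb at 1 end. The sources used here do not say whether strand was used in counting, and without it reads in that stretch cannot be assigned to either gene. Stx6, a SNARE of the trans-Golgi network, had 138, 134.5 and 84.3 against 70.6, 60.9 and 95.7, a log2 fold change of -0.65 ± 0.27 with culture C of each group overlapping. Acbd6, an acyl-CoA-binding protein, had 29.8, 27.0 and 35.3 against 22.3, 22.4 and 21.8, a log2 fold change of -0.47 ± 0.18 with mutant cultures that were almost level. Vamp4, another SNARE, had 26.6, 27.7 and 17.6 against 21.9, 22.5 and 18.0, at -0.20 ± 0.24, with all mutant cultures inside the wildtype range. The other log2 fold changes were -0.58 for Tor1aip1, -0.54 for the mitochondrial import gene Timm17a (-0.14 without wildtype culture C), -0.35 for the nuclear import receptor gene Ipo9 and -0.22 for Suco, a protein of the endoplasmic reticulum.

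All 5 genes of ion transport and receptors had negative log2 fold changes, with a median of -0.48, and 2 had groups that did not overlap, the phosphate exporter Xpr1 at -0.36 ± 0.19 and the calcium channel gene Tmco1 at -0.48 ± 0.20. Atp1b1, the β subunit of the sodium pump, had 153, 179 and 43.1 normalized counts in the wildtype cultures and 75.5, 21.4 and 25.5 in the mutant cultures. The log2 fold change of -1.61 ± 0.69 went with a wildtype culture C that lay below mutant culture A. Adipor1, an adiponectin receptor, had 176, 202 and 251 against 152, 328 and 113, so that mutant culture B was the highest of all 6 and the log2 fold change was -0.08 ± 0.42. The calcium pump gene Atp2b4 was near the floor of the tested genes, with 4.99, 3.50 and 4.74 against 0.674, 0.296 and 7.14, a log2 fold change of -0.70 ± 1.07.

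The 8 genes of metabolism and redox had the widest spread of values, with quartiles of -0.87 and -0.13, 6 negative log2 fold changes, a median of -0.43 and 4 pairs of groups that did not overlap. Prdx6, a peroxidase that reduces phospholipid hydroperoxides, had 226.5, 298 and 1605 normalized counts in the wildtype cultures and 158.5, 175 and 169 in the mutant cultures. The mutant cultures were level and under the wildtype, but the log2 fold change of -2.08 ± 0.78, the lowest of the list, rested on wildtype culture C and was -0.63 without it. Uck2, which phosphorylates uridine and cytidine, had 34.6, 45.1 and 92.8 against 33.8, 21.3 and 29.1, with a log2 fold change of -1.04 ± 0.41 that was -0.49 without wildtype culture C. Neither gene passed both thresholds without that culture, or without any 1 of the mutant cultures, so that each was called in 2 of 6 refits with a culture removed. Glul, glutamine synthetase, had 139, 130 and 108 against 127, 48.3 and 256, the widest overlap of the group, at 0.20 ± 0.55. Cyb5r1, a cytochrome b5 reductase, had 22.5, 28.9 and 63.9 against 38.1, 45.3 and 37.5, at 0.07 ± 0.40. Soat1, which esterifies cholesterol, had 136, 151 and 247 against 82.4, 85.7 and 135, groups that did not overlap, at -0.82 ± 0.32. The aminopeptidase gene Rnpep had a log2 fold change of -0.63, which was -0.22 without wildtype culture C. Uap1, which makes an activated sugar for glycosylation, and Fam20b, a xylose kinase of proteoglycan synthesis, were at -0.23 and -0.20.

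With wildtype culture C left out, the log2 fold change went from -0.50 to -0.21 for Cacybp, from -0.67 to -0.34 for Ppp1r12b and from -0.23 to -0.07 for Uap1. It went from -0.37 to -0.21 for Dhx9, from -0.35 to -0.21 for Nav1, from -0.35 to -0.23 for Ipo9 and from -0.29 to -0.18 for Eif2d. For Soat1 it went from -0.82 to -0.50, for Tmco1 from -0.48 to -0.30 and for Glul from 0.20 to 0.11. These genes moved toward 0, as did Pou2f1, Timm17a, Rnpep, Prdx6 and Uck2. Away from 0 went Srgap2, from -0.49 to -0.73, Vamp4, from -0.20 to -0.37, Dstyk, from -0.02 to -0.14, Ube2t, from 0.23 to 0.46, and Cyb5r1, from 0.07 to 0.66. The sign changed for Nucks1, for Adipor1, to 0.08, and for Rabgap1l, to 0.02.

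**Figure D2:**
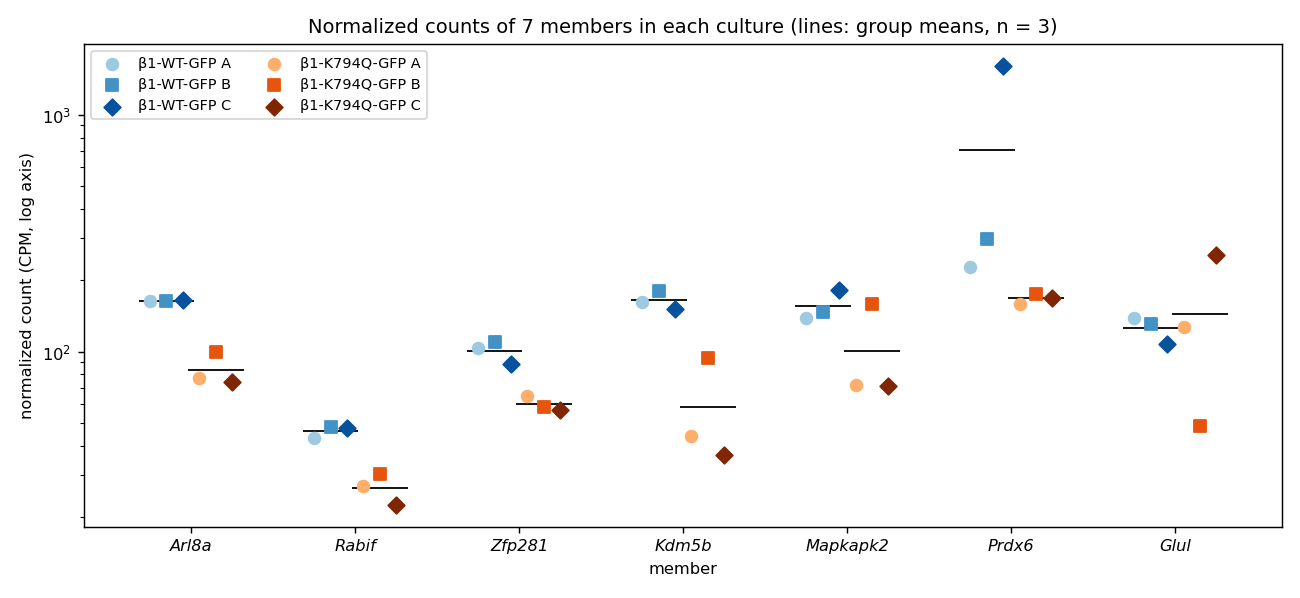
Normalized counts (CPM, log axis) of 7 genes of the list in each culture, with lines at the group means (n = 3). Arl8a, Rabif, Zfp281 and Kdm5b have mutant cultures below all wildtype cultures, Mapkapk2 has mutant culture B at 158.5 inside the wildtype range, the wildtype mean of Prdx6 follows culture C at 1605, and the mutant cultures of Glul range from 48.3 to 256.

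Of the 56 log2 fold changes, 40 lay between -0.9 and -0.2, 7 at or below -1 and 3 above 0. Within 0.3 of their median were 34 of the 56 (60.7%), and 55.5% of all tested genes lay as near to their own median. Over the 56 genes, Pearson's r of the log2 fold change was -0.05 with the log2 level, 0.00 with the log2 length of the gene and -0.06 with the position, and Spearman's rho was 0.02, 0.01 and -0.01. These are descriptions across genes that share libraries and are not independent replicates. The median was -0.54 in the 28 genes with the higher levels and -0.55 in the 28 with the lower levels. It was -0.55 in the 26 tested genes under 140 Mb and -0.53 in the 30 from 150 Mb on. On both strands of the chromosome the list has many genes, 27 on the plus and 30 on the minus strand. Per kilobase of exon, Prdx6 with 148 CPM and Arpc5 with 107 CPM had the highest levels in β1-WT-GFP cells, and Nuak2 with 0.0237 the lowest. Over wildtype cultures A and B alone Arpc5 was the highest at 89.2 CPM and Tor1aip1 the next at 73.3, and Prdx6 was at 54.5. In every fit that left out a culture the direction was kept for 49 of the genes. The other 7 were Nucks1, Dstyk, Cyb5r1, Adipor1, Ube2t, Glul and Rabgap1l, the first with a log2 fold change of -0.24 and the rest between -0.08 and 0.23. Of the 57 genes 11 overlap the body of another counted gene, and Tor1aip1 and Tor1aip2, which overlap each other, and Zbed6 within Zc3h11a are the overlapping genes with the most counts.

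Genes of the same interval that are not on the list were at a similar level. The interval itself was part of the choice on this contrast, so these genes are not independent of it. The 166 other tested genes that start between 130 and 180 Mb had a median log2 fold change of -0.52, with 143 negative, and medians of -0.57, -0.61 and -0.62 in the mutant cultures. In 65 of them (39.2%) each mutant culture was below each wildtype culture, and in 4 each was above. Over all tested genes these 2 orders were seen in 8.12% and 8.45%, and 5993 of 11608 had a negative log2 fold change. The first genes after 130 Mb, Cd55, Pfkfb2 and Yod1, which precede Mapkapk2 and are not on the list, had log2 fold changes of -0.68, -0.67 and -0.45. Mdm4, an inhibitor of p53 that lies between listed genes, had 186, 171 and 102.2 normalized counts in the wildtype cultures and 101.5, 63.7 and 102.0 in the mutant cultures. Its log2 fold change was -0.78 ± 0.31, with an adjusted p of 0.450 in edgeR's quasi-likelihood test.

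Past a fold change of 2 and an unadjusted p of 0.05, with a mean of at least 5 CPM, were 9 of these other genes, 7 lower and 2 higher. With no limit on the mean, 11 of the 166 were called lower and 3 higher. Of all 11608 tested genes, 199 were called lower and 404 higher. The homeobox gene Prrx1, a mesenchymal regulator, had 183, 193.5 and 56.6 normalized counts in the wildtype and 1, 1 and 0 raw counts in the mutant cultures, with an adjusted p of 0.0198 in edgeR's quasi-likelihood test. It was the only other gene of the interval with an adjusted p of at most 0.05, and it was lower in all 3 mutant cultures. Ralgps2, an exchange factor for Ral like Rgl1, had 54.2, 48.9 and 53.4 against 20.4, 25.4 and 25.5, at -1.13 ± 0.17 with an adjusted p of 0.0956 in the same test. The remaining genes called lower with a mean of at least 5 CPM were Rassf5, with a log2 fold change of -1.41, and Tfb2m, Gas5, Mettl13 and Cox20, with values nearer to 0. The genes called higher with such a mean were the thiamine transporter gene Slc19a2 at 2.13 ± 0.54 and the G protein regulator gene Rgs7 at 3.43 ± 0.86. Their adjusted p were 0.228 and 0.220 in edgeR's quasi-likelihood test. Slc19a2 had 3.24, 3.50 and 11.7 against 25.1, 27.5 and 28.8, so that a gene in the middle of the interval stood above its neighbours in all 3 mutant cultures.

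A list of vascular, adhesion and p53-related genes of the interval had 12 of 16 genes tested, a median log2 fold change of -0.77, 1 called lower (Prrx1) and 0 called higher. Of all tested genes 1.71% were called lower, and in 8.12% each mutant culture was below each wildtype culture. That order was seen in 3 of the 12 genes of this list. Wildtype culture C stood far from cultures A and B for several of these genes: the selectin gene Selp had 12.3, 19.8 and 112 in the wildtype cultures and 82.3, 75.8 and 32.0 in the mutant cultures. Of 9 cell division genes of the interval, all tested, 0 were called and the median was -0.51. Among these, the groups did not overlap for Cdc73, a subunit of a transcription elongation complex, with a log2 fold change of -0.60, and for Tpr, of the nuclear pore basket, with -0.51.

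The same level was seen outside the interval from which the genes were listed. Along chromosome 1, 648 genes were tested, and a running median over 15 neighbouring genes was taken in each culture. A stretch was marked where this median was at or below 50% of the median log2 ratio of the listed genes in the same culture. Only runs of at least as many genes as the running median took were marked, so that shorter runs are not shown. This measure was chosen after the data were seen. In mutant culture C it was a single stretch of 332 genes, from Pde6d at 86.54 Mb to Srp9 at 182.1 Mb. In culture A it ran from Ncl at 86.34 Mb to Aim2 at 173.4 Mb and again from Sdccag8 at 176.8 Mb to Srp9 at 182.1 Mb. In culture B it was broken in the middle: it covered 85.72 to 92.93 Mb and 93.3 to 97.8 Mb, then began again with Pfkfb2 at 130.7 Mb, just before Mapkapk2, and ran to Blzf1 at 164.3 Mb and from Pogk at 166.4 Mb to Lbr at 181.8 Mb. With a running median over 25 genes the break in culture B lay between Pign at 105.5 Mb and Cxcr4 at 128.6 Mb. With 15 genes the outer ends thus lay between 85.72 and 86.54 Mb and between 181.8 and 182.1 Mb in the 3 mutant cultures. With 25 genes they lay between 85.89 and 86.54 Mb and between 181.9 and 182.3 Mb, at the resolution of the running median. The long break before the list was seen in culture B alone, and shorter breaks were seen in A and B at different places.

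**Figure D3:**
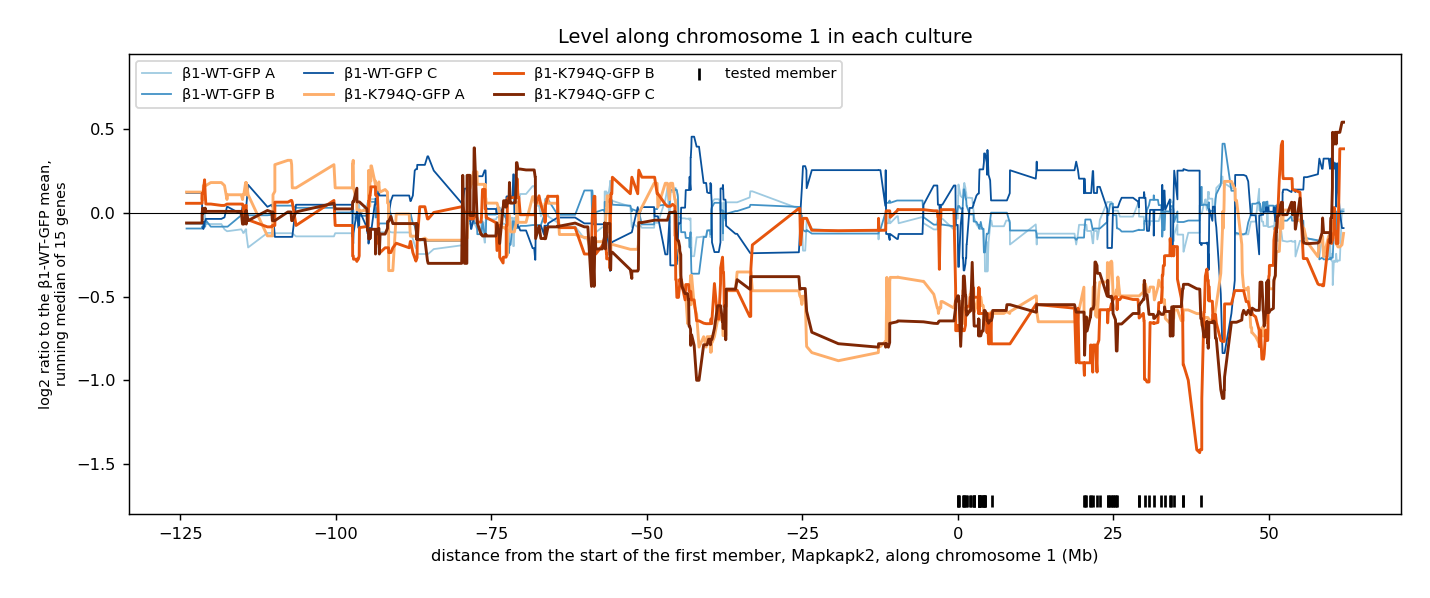
Running median over 15 genes of the log2 ratio of the normalized count to the β1-WT-GFP mean along chromosome 1, against the distance in Mb from the start of Mapkapk2, the first gene of the list; each line is 1 culture and black ticks mark the 56 tested genes. The β1-K794Q-GFP lines leave the wildtype lines at about the same distance before the list and return after it, and culture B lies at the wildtype level in the stretch before the first tick.

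Medians of fixed stretches, also set after the profile was seen, showed the same order. In the 248 genes that start under 85 Mb the median log2 ratio was 0.05, 0.02 and -0.07 in the mutant cultures. In the 61 genes from 85 to 95 Mb it was -0.61, -0.50 and -0.55. In the 44 genes from 95 to 130 Mb it was -0.50, -0.03 and -0.65, so that culture B was at the wildtype level where A and C were not. In the 73 genes from 180 Mb it was -0.20, -0.18 and -0.01. Without wildtype culture C the fitted medians of these stretches were 0.09, -0.44, -0.27 and 0.12 in the same order, against -0.01, -0.54, -0.39 and -0.04 with it. Between 85 and 95 Mb each mutant culture was below each wildtype culture in 24 of the 61 genes (39.3%), close to the share among the other genes of the interval. That share was 8.12% over all tested genes, 4.44% under 85 Mb, 11.4% from 95 to 130 Mb and 16.4% from 180 Mb.

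**Figure D4:**
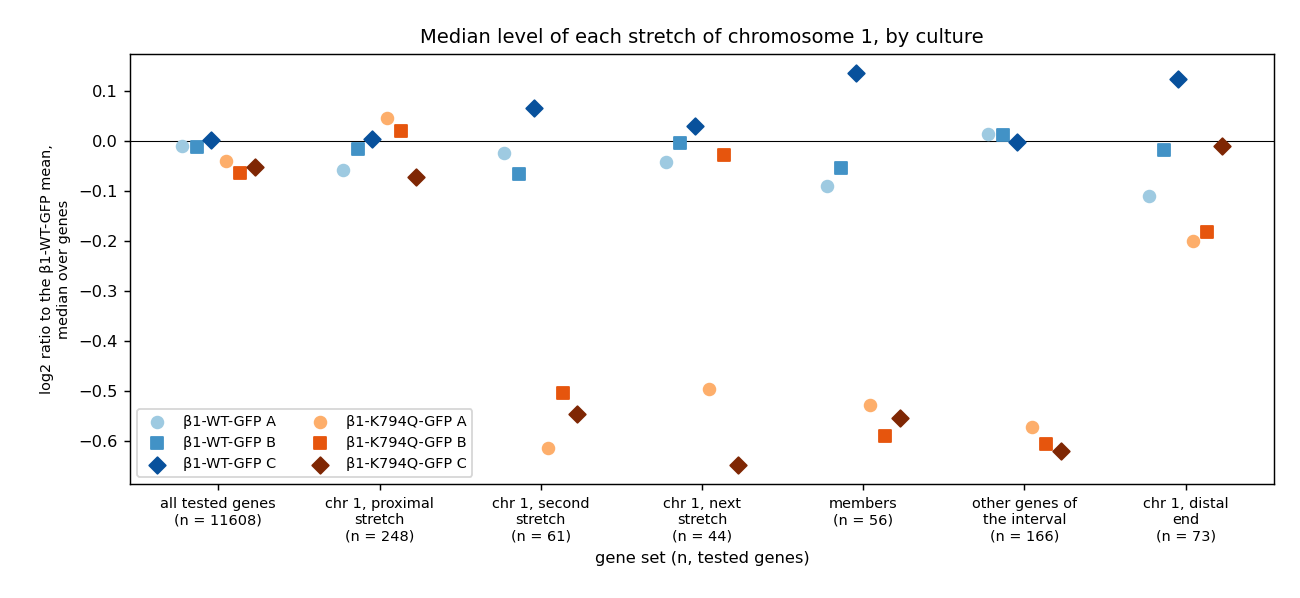
Median over genes of the log2 ratio of the normalized count to the β1-WT-GFP mean, 1 point per culture, for all tested genes, for chromosome 1 genes under 85 Mb (proximal stretch), from 85 to 95 Mb (second stretch) and from 95 to 130 Mb (next stretch), for the listed genes, for the other genes from 130 to 180 Mb and for those from 180 Mb (distal end). Mutant culture B is at -0.03 in the next stretch, where cultures A and C are at -0.50 and -0.65.

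The flanks, which the list did not use, were compared over the cultures; the proximal flank includes the genes from 85 to 130 Mb described above. The median log2 level of the 353 genes under 130 Mb differed by -0.08 between β1-K794Q-GFP and β1-WT-GFP cells (two-sided exact permutation p = 0.2, n = 3 cultures each), and that of the 73 genes from 180 Mb by -0.08 (two-sided exact permutation p = 0.7). The smallest p that 3 cultures against 3 allow is 0.1. Among 229 bins of 10 Mb across the genome with at least 15 tested genes, 8 had a median log2 fold change at or below -0.4, and 6 of these were on chromosome 1. The listed genes, chosen on this contrast, are part of these bins. With them left out, a comparison added after the data were seen, 8 of 229 bins were again at or below -0.4 and 6 of them were on chromosome 1. The interval itself was part of the choice. Its bins from 130 to 140 Mb and from 150 to 180 Mb, among these 6, are therefore not independent of that choice. With all genes the lowest bin was 150 to 160 Mb of chromosome 1, with -0.66 over 40 genes and -0.54, -0.73 and -0.60 in the mutant cultures, and without the listed genes it was at -0.68 over 23 genes. The other bins at or below -0.4 were on chromosome 3, where the cultures differed. The mutant cultures had -1.10, -0.06 and -1.13 in the bin from 10 to 20 Mb. They had -0.12, -0.19 and -0.51 in the bin from 140 to 150 Mb.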

How the data were processed

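Per the labels and the study's methods, rRNA-depleted total RNA of 3 β1-WT-GFP and 3 β1-K794Q-GFP cultures of eEnd2 cells was sequenced. The authors deposited raw counts per gene symbol (23420 symbols), and the submitters' processing notes name mm10, bcl2fastq 2.20.0, STAR 2.7.4a, HTSeq 0.9.1 and edgeR 3.38.4. The annotation and the strand setting are not given in the sources used here.

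Counts were filtered with filterByExpr, TMM-normalized and compared with edgeR 4.0.16 (quasi-likelihood F-test, two-sided, group as the only factor, common dispersion 0.186, Benjamini-Hochberg adjustment over 11608 genes) in R 4.3.3. Genes were called at a 2-fold difference or more with an unadjusted p up to 0.05. DESeq2 1.42.0, other filters and normalizations, a replicate block, and fits leaving out each culture were alternatives. The fits were tested on simulated data.

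Symbols were looked up in GENCODE M21 (GRCm38) for their positions, 21777 directly and 1278 by synonym, with 365 not matched. Promoters came from RefSeq (GRCm38.p6). The sources used here do not say that letters pair the cultures, and letters were not taken as pairs. Deviations of same-letter cultures had r of 0.0873, 0.0553 and 0.0921, and those of different letters -0.146 to 0.085. The 57 genes, their role groups and the other lists were chosen with earlier results of these data known. In each role group, values per culture are given for the genes with the lowest and the highest fold change and with the highest mean count, for the 3 lowest and 3 highest of all, and for others named after their values were seen. Other genes of the interval are those past both thresholds with a mean of at least 5 CPM, largest first and at most 10, and the 2 lists. The values of 1 gene of these lists are not reported here.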

Additional observations from a re-analysis of the deposited data

How the results depend on the processing

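Across the alternatives the median log2 fold change of the listed genes stayed negative. Leaving out each culture in turn gave -0.60 to -0.43 for the listed genes, the last without β1-WT-GFP culture C, -0.57 to -0.50 for the other genes of the interval, and -0.12 to 0.050 for the rest of chromosome 1, which turned positive without β1-WT-GFP culture C. The number of listed genes called lower was 2 to 6 in these fits, with 2 without β1-WT-GFP culture C, and the number of all genes past both thresholds was 501 to 992, with 992 without that culture and 942 without β1-K794Q-GFP culture B. Without a filter on low counts it was 916. The median of the other genes of the interval, -0.52, was -0.49 for an interval of 120 to 190 Mb, -0.50 for 140 to 170 Mb and -0.50 when each culture was centred on genes outside chromosomes 1 and 10. The rest of chromosome 1 was at -0.20 when the interval was 140 to 170 Mb, since genes at the level of the list then count as the rest.

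With the culture letter as a replicate block, 571 genes passed both thresholds, 4 listed genes were called lower, the median of the listed genes was -0.53 and that of the other genes of the interval -0.50; Prdx6 and Uck2 were not past both thresholds in that fit. Every same-letter correlation was positive and under 0.1, and those between different letters ran from -0.146 to 0.085. Values of this size do not settle whether the letters pair the cultures.

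Against β1-WT-GFP cultures A and B alone the median log2 ratio of the listed genes was -0.46, -0.44 and -0.55 in the mutant cultures (A, B and C in order), and against β1-WT-GFP culture C alone it was -0.67, -0.66 and -0.76. The counts that use cultures A and B only, and the running medians, were chosen after seeing the data. With 3 cultures per group single genes of the list could be placed only within a standard error of 0.15 to 1.29 on the log2 scale, median 0.26.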

Other observations

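Chromosome 1 was the chromosome with the lowest median log2 fold change, -0.24 over 648 tested genes, listed genes included, and -0.09 over the 426 genes outside the interval of 130 to 180 Mb; chromosome 10 had the highest, 0.55 over 548. On chromosome 10 the 31 genes from 110 to 120 Mb had medians of 1.17, 0.34 and 1.05 in the mutant cultures (A, B and C in order). β1-K794Q-GFP culture B was thus nearer to the wildtype than A and C there. It was also nearer in the genes from 95 to 130 Mb of chromosome 1 and from 10 to 20 Mb of chromosome 3. Elsewhere culture B was the one farther from the wildtype. From 80 to 90 Mb of chromosome 11 the medians were 0.08, -0.75 and -0.01 in A, B and C. From 30 to 40 Mb of chromosome 3 they were -0.06, 0.81 and -0.16. In the listed genes the 3 cultures lay within -0.59 to -0.53. Whether these regions differ for a shared reason was not tested.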
